A study of Homo sapiens with 8 samples.

Results

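The enzymes of arginine and proline metabolism examined here are the products of 9 genes, chosen by name and role: ASS1, ASL, ARG2, OAT, ALDH18A1, PYCR1, PYCR3, PRODH and ALDH4A1. They are 9 of the 12236 genes listed in at least 1 of 8 ribosome profiling libraries from HEK293T cells, an established human embryonic kidney line immortalised with the large T antigen of SV40. Ribosome profiling counts the mRNA fragments (footprints) that ribosomes shield from nuclease, so a value is the share of a library's ribosomes found on a coding sequence; more mRNA, more ribosomes on each mRNA and a changed total of ribosomes cannot be told apart. Cells were kept for 12 h in a sufficient control medium (Suff), made from a medium without sulfur amino acids, histidine, leucine and arginine to which these were added back with dialysed serum, or in the same medium without arginine (Arg-), leucine (Leu-) or methionine (Met-). One series of 4 libraries came from cells treated with cycloheximide (CHX), which arrests elongating ribosomes, just before they were collected, and the other series of 4 from cells without this pretreatment. Each condition had 1 library in each series and no replicate, so no difference below carries a test, and the spread between cultures is unknown.

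Arginine is made from citrulline and aspartate by argininosuccinate synthase (ASS1) and argininosuccinate lyase (ASL), and is split to ornithine and urea by arginase, whose mitochondrial form is ARG2. Ornithine aminotransferase (OAT) links ornithine with pyrroline-5-carboxylate, which is also made from glutamate by ALDH18A1 (pyrroline-5-carboxylate synthase) and reduced to proline by reductases that include the mitochondrial PYCR1 and the cytosolic PYCR3. Proline dehydrogenase (PRODH) and ALDH4A1 take proline back to glutamate. ALDH18A1 and PYCR1 are known targets of ATF4, the transcription factor that amino acid lack induces, and ASS1 is known to respond to arginine lack in many cell lines.

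The libraries held 538222 to 6434043 reads on coding sequences with CHX, the fewest in Met-, and 1302523 to 3139745 without CHX. A transcript was listed with CHX only from 64 reads upward and without CHX from 5. All 9 enzymes were listed without CHX in Suff, Arg- and Leu- and 8 of them in Met-, whereas with CHX 5 were listed in Suff, 7 in Arg-, 8 in Leu- and 2 in Met-. PYCR1 and PYCR3 were the only ones listed in all 8 libraries. Met- with CHX listed 2021 genes in all, beside 5466 in Suff with CHX. Comparisons with that Met- library hold only genes high enough in it to be listed, so their medians and shares lean towards genes high in Met-. For an enzyme that was not listed, an upper limit was taken from 63 reads (with CHX) or 4 reads (without CHX) on its coding sequence. A fold set against such a limit carries no counting interval. Of 7 genes typical of HEK293T cells, 6 were listed in all 4 libraries without CHX, among them vimentin and the neurofilament genes NEFL and NEFM, while none of the 3 hepatocyte, 3 fibroblast and 2 leukocyte markers was listed in any library. Of the 7, PAX2 was listed only in Leu- and Met- without CHX, from 6 and 11 reads. LHX1 without CHX rested on 7 to 12 reads. With CHX PAX2, LHX1 and KRT8 were listed in no library.

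Only uniquely mapped reads were counted, so stretches that an enzyme shares with another gene matter for its level. Of all windows of 28 bases in the coding sequence, 55.2% in ASS1 and 25.7% in OAT also occur in transcripts of pseudogenes or other genes that are not protein coding. The share was 40.4% in ASL, nearly all with gene models annotated as protein coding, 16.8% in PRODH, 1.45% in ARG2, 0.215% in PYCR1 with CHX and 0.198% without CHX, and 0 in ALDH18A1, PYCR3 and ALDH4A1. Which of these copies the alignment included is not given in the sources used here, so the levels of ASS1, OAT and ASL against other enzymes are uncertain, while a ratio between libraries of 1 series uses the same positions on both sides.

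In Suff without CHX, where all 9 enzymes were listed, their levels in RPKM (reads per kilobase of coding sequence, scaled to the total reads of the library) ran from 192 for PYCR1 to 1.24 for PRODH. PYCR1 was followed by OAT at 126, PYCR3 at 64.4, ALDH18A1 at 45.2, ASS1 at 35.5, ARG2 at 30.8, ASL at 20.5 and ALDH4A1 at 12.2. The 95% Poisson intervals of neighbours overlapped from ALDH18A1 to ASS1, from ASS1 to ARG2 and from ARG2 to ASL, and were apart elsewhere. These intervals, like all below, cover the counting of reads only. PYCR1 stood above 90.5% of the genes listed in that library and PRODH above 4.3%. In Suff with CHX the order of the 5 listed enzymes was PYCR1 (295), PYCR3 (112), ASS1 (34.4), ARG2 (24.3) and ALDH18A1 (14.9), with ALDH18A1 now last.

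**Figure D1:**
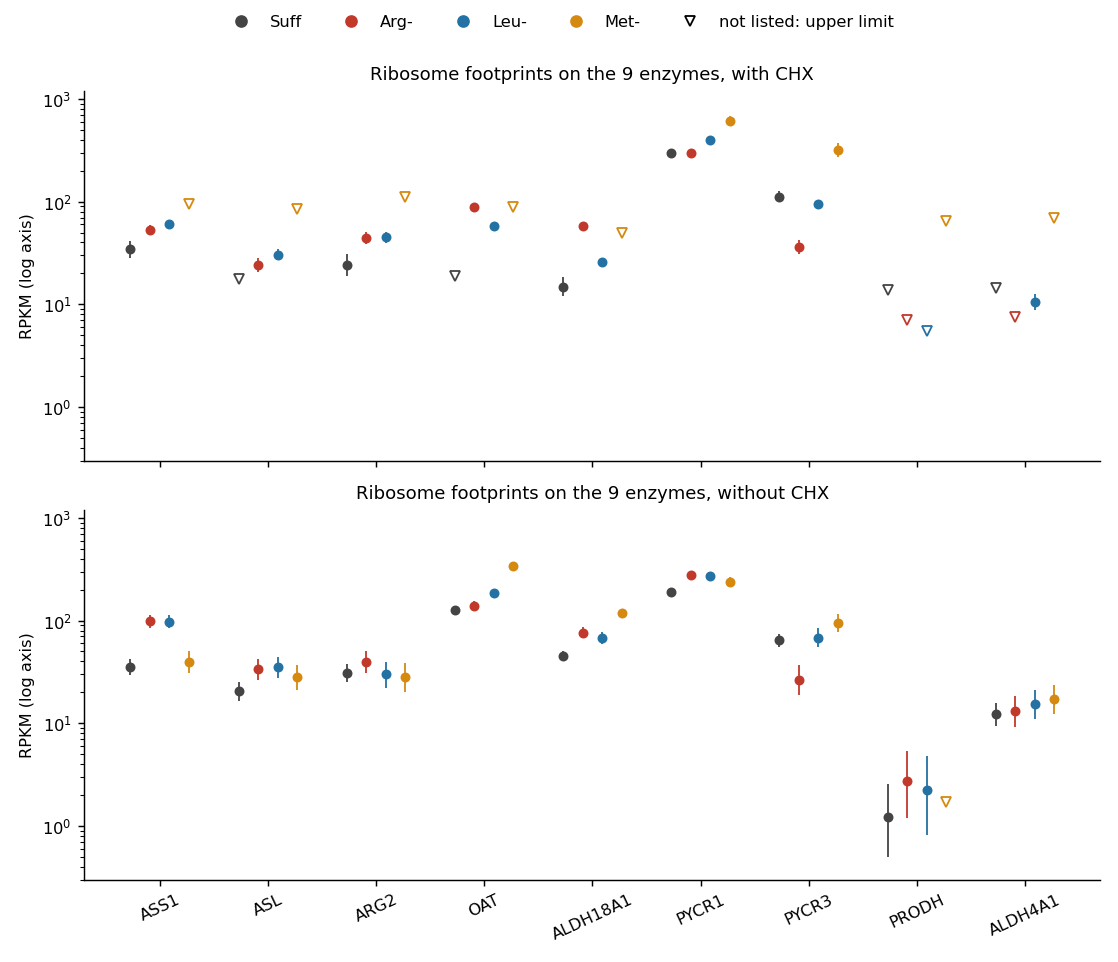
RPKM (log axis) of the 9 enzymes in each library, with CHX above and without CHX below. Points are single libraries with 95% Poisson intervals of the read count, and open triangles are the upper limits of enzymes that were not listed. ASS1 without CHX stands near 98 in Arg- and Leu- and under 40 in Suff and Met-, and PYCR3 is lowest in Arg- in both series.

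For arginine synthesis, ASS1 was higher in Arg- and Leu- than in Suff in both series. Without CHX its RPKM was 35.5 in Suff, 98.7 in Arg-, 97.6 in Leu- and 39.7 in Met-, from 138, 197, 181 and 64 reads. With CHX it was 34.4 in Suff, 53.5 in Arg- and 60.5 in Leu-, and it was not listed in Met-, where the limit of 94.7 lies above all 3 values. Arg- and Leu- thus stood together above Suff and, without CHX, above Met-. Ratios are given as log2((RPKM + 1)/(RPKM in Suff + 1)), with the 95% exact interval of the read ratio taken without the added 1. For ASS1 without CHX the log2 ratio to Suff was 1.45 in Arg- (1.16 to 1.80), 1.43 in Leu- (1.13 to 1.79) and 0.16 in Met- (-0.29 to 0.60), and only 2.47% and 2.04% of the genes compared had a higher ratio than ASS1 in Arg- and Leu-. With CHX it was 0.62 in Arg- (0.32 to 0.96) and 0.79 in Leu- (0.51 to 1.13), so the difference was smaller there. A higher ratio than that of ASS1 was found with CHX for 24.6% of the genes in Arg- and 17.2% in Leu-.

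ASL, the next enzyme of arginine synthesis, was also higher in Arg- and Leu- than in Suff. Its RPKM without CHX was 20.5 in Suff, 33.8 in Arg-, 34.96 in Leu- and 28.1 in Met-, from 51 to 90 reads. The log2 ratio to Suff was 0.69 in Arg- (0.26 to 1.18), 0.74 in Leu- (0.30 to 1.23) and 0.43 in Met- (-0.08 to 0.96). A higher ratio than that of ASL was found for 15.8%, 14.2% and 44.3% of the genes. With CHX its RPKM was 24.1 in Arg- and 30.5 in Leu-. ASL was not listed in Suff with CHX, which puts it at least 1.36-fold and 1.72-fold higher than the Suff limit of 17.7.

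ARG2, which breaks arginine down, was higher in Arg- and Leu- than in Suff with CHX, and no difference from Suff was detectable without CHX. Without CHX its RPKM was 30.8 in Suff, 39.6 in Arg-, 30.1 in Leu- and 28.1 in Met-, and the intervals of all 3 log2 ratios to Suff included 0. With CHX it was 24.3 in Suff, 44.5 in Arg- and 44.8 in Leu-, log2 ratios of 0.85 (0.48 to 1.29) and 0.86 (0.50 to 1.29), and it was not listed in Met- (limit 110.2). The Suff value with CHX rests on 66 reads, just above the listing cutoff of 64. A higher ratio than that of ARG2 was found with CHX for 19.6% of the genes in Arg- and 15.7% in Leu-.

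OAT, which joins ornithine to the proline pathway, was highest in Met- without CHX. Its RPKM there was 126 in Suff, 138 in Arg-, 185 in Leu- and 337 in Met-, from 294 to 579 reads. The log2 ratio to Suff was 0.13 in Arg- (-0.08 to 0.34), 0.55 in Leu- (0.35 to 0.75) and 1.41 in Met- (1.24 to 1.59), which 9.02% of the genes exceeded. With CHX it was 89.4 in Arg- and 58.3 in Leu-, and it was listed neither in Suff, where the limit was 18.7, nor in Met-, where it was 88.9. It was thus at least 4.79-fold higher in Arg- and 3.12-fold higher in Leu- than that Suff limit. Of the 2950 genes at 50 RPKM or more in both Arg- and Leu- with CHX, 144 (4.88%) were not listed in Suff. The series differed for OAT in size, and in the order of Arg- and Leu-.

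ALDH18A1, which makes pyrroline-5-carboxylate from glutamate, was higher in every starved library that listed it. With CHX its RPKM was 14.9 in Suff, 58.3 in Arg- and 25.7 in Leu-, from 91, 697 and 394 reads, and it was not listed in Met- (limit 49.1). Without CHX it was 45.2 in Suff, 76.4 in Arg-, 67.7 in Leu- and 118 in Met-. All 5 intervals lay above 0: with CHX the log2 ratio was 1.90 in Arg- (1.65 to 2.30) and 0.75 in Leu- (0.45 to 1.13), and without CHX it was 0.74 in Arg- (0.53 to 0.99), 0.57 in Leu- (0.34 to 0.82) and 1.37 in Met- (1.17 to 1.60). The Arg- ratio with CHX, 3.91-fold in RPKM, was exceeded by 4.04% of the genes, and the Met- ratio without CHX by 9.65%. The Leu- ratio with CHX was exceeded by 18.9%, and the Arg- and Leu- ratios without CHX by 14.1% and 22.3%. Without CHX Met- was 1.55-fold above Arg-. With CHX the Arg- value lay 1.19-fold above the Met- limit, but this limit carries no counting interval. The order of Arg- and Met- with CHX is therefore not settled.

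PYCR1, the mitochondrial reductase and the enzyme with the highest RPKM of the group in every library but 1, was level with Suff or higher in the starved libraries. With CHX its RPKM was 295 in Suff, 295 in Arg-, 401 in Leu- and 615 in Met-. Without CHX it was 192 in Suff, 276 in Arg-, 271 in Leu- and 237 in Met-, the one library in which OAT was higher. The log2 ratio in Arg- was 0.00 with CHX (-0.13 to 0.13) and 0.52 without CHX (0.35 to 0.70), and in Leu- it was 0.44 and 0.50. Relative to the median of all genes compared, these stand at 0.23 and 0.54 in Arg- and at 0.42 and 0.36 in Leu-. In Met- it was 1.06 with CHX and 0.30 without, which stand 0.17 and -0.01 from that median. RPKM was deposited for a different transcript of PYCR1 in each series, so its levels are not compared between them.

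PYCR3, the cytosolic reductase, was the one enzyme that was lower in Arg-, and it was so in both series. With CHX its RPKM was 112 in Suff, 36.3 in Arg-, 94.9 in Leu- and 318 in Met-, from 246, 156, 524 and 147 reads. Without CHX it was 64.4 in Suff, 26.7 in Arg-, 68.3 in Leu- and 95.4 in Met-, from 174, 37, 88 and 107 reads. Arg- was the lowest and Met- the highest library of each series, and Suff and Leu- lay between them close to each other. The log2 ratio to Suff in Arg- was -1.60 with CHX (-1.92 to -1.33) and -1.24 without CHX (-1.82 to -0.75), a 3.09-fold and a 2.41-fold lower RPKM, and 5.18% and 2.78% of the genes compared had a lower ratio. In Leu- the log2 ratio was -0.24 (-0.46 to -0.01) and 0.08 (-0.30 to 0.46). In Met- it was 1.50 with CHX (1.20 to 1.81) and 0.56 without CHX (0.21 to 0.92), which are 0.61 and 0.25 above the median of all genes. At its Suff level PYCR3 would have stayed under the cutoff of 64 reads in Met- with CHX, so a listed value there could only exceed Suff.

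A ratio of genes within 1 library does not depend on how that library was scaled, and by this measure too PYCR3 was lowest in Arg- and highest in Met-. The RPKM of PYCR1 was 2.64 times that of PYCR3 in Suff with CHX (95% interval 2.28 to 3.06), 8.13 times in Arg- (6.88 to 9.65), 4.23 times in Leu- (3.85 to 4.66) and 1.93 times in Met- (1.58 to 2.37). Without CHX it was 2.98 times in Suff (2.52 to 3.55), 10.3 times in Arg- (7.38 to 14.9), 3.98 times in Leu- (3.15 to 5.06) and 2.48 times in Met- (1.99 to 3.12). The Arg- interval was apart from the other 3 in both series. Leu- was apart from Met- in both series and from Suff with CHX only, and Suff and Met- overlapped in both.

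**Figure D2:**
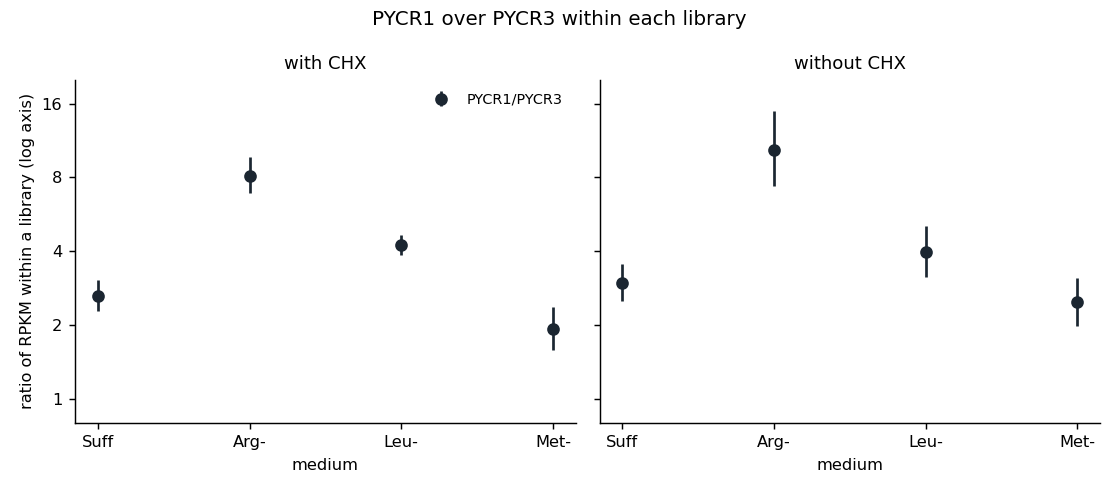
Ratio of the RPKM of PYCR1 to that of PYCR3 within each library (log axis), with CHX on the left and without CHX on the right. Bars are 95% exact intervals from read counts, covering counting error only. The ratio is highest in Arg-, at 8.13 and 10.3, and lowest in Met-, at 1.93 and 2.48.

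The enzymes of proline breakdown had few reads. ALDH4A1 without CHX had an RPKM of 12.2 in Suff, 13.2 in Arg-, 15.4 in Leu- and 17.2 in Met-, from 36 to 65 reads, and all 3 intervals of its log2 ratio included 0. With CHX it was listed only in Leu-, at 10.6, below the Suff limit of 14.6 and at least 1.42-fold above the Arg- limit of 7.44, whereas without CHX its log2 ratio of Arg- to Leu- was -0.21 (-0.92 to 0.47). PRODH was listed without CHX from 7 reads in Suff, 8 in Arg- and 6 in Leu-, at an RPKM of 1.24, 2.75 and 2.22, and it was not listed in Met- (limit 1.7) or in any library with CHX. At this depth no difference from Suff was detectable for either enzyme.

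Over the group, each starved library was compared with Suff for the genes listed in both libraries at a mean RPKM of at least 10, and a gene was counted when its log2 ratio reached 2-fold. In Arg- with CHX 5 of the 9 enzymes could be compared: 1 was at least 2-fold higher, ALDH18A1, against a background of 16.6% of 5074 genes, and 1 was at least 2-fold lower, PYCR3, against 19.7%. In Arg- without CHX 8 enzymes were compared, with 1 higher, ASS1 (background 8.23%), and 1 lower, PYCR3 (background 5.95%). PRODH was left out of this and all other comparisons for its low level. The median log2 ratio of the compared enzymes was 0.62 with CHX and 0.44 without CHX in Arg-, beside -0.23 and -0.02 for all genes. In Leu- with CHX none of 5 was 2-fold higher (background 12.1%) or lower (7.28%), with a median of 0.75 beside 0.02 for all genes. In Leu- without CHX 1 of 8, ASS1, was higher (background 6.85%) and none was lower (2.06%), with a median of 0.52 beside 0.14. In Met- with CHX only PYCR1 and PYCR3 could be compared, and both were at least 2-fold higher, where 46.7% of 1890 genes were higher and 9.79% lower and the median of all genes was 0.89. The enzymes and the genes beside them were compared there only if high enough in Met- to be listed. In Met- without CHX 2 of 8 were higher, OAT and ALDH18A1 (background 20.2%), and none was lower (5.34%), with a median of 0.45 beside 0.32 for all genes. With so few members, these shares do not set the group apart from the background. Comparisons with Suff in 1 series share the same Suff library.

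**Figure D3:**
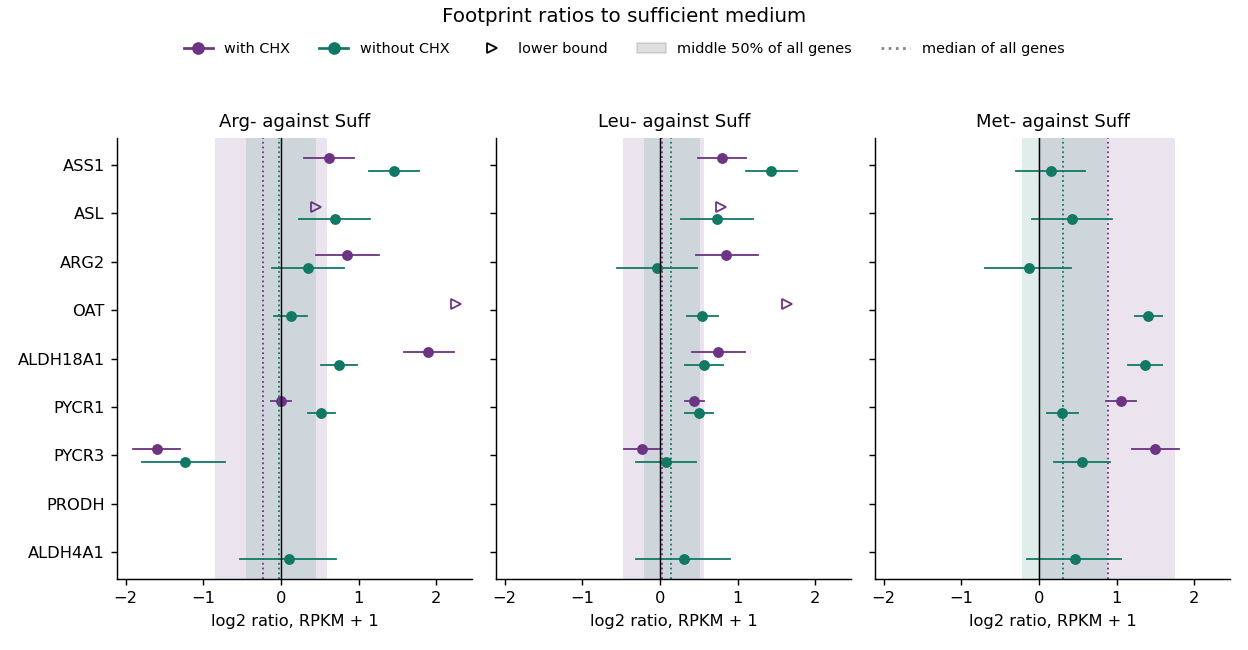
Log2 ratios of RPKM + 1 to Suff in Arg-, Leu- and Met-, for each enzyme with CHX (purple) and without CHX (green). Bars are 95% exact intervals of the read ratio, moved to the RPKM + 1 scale, open triangles are lower bounds where Suff was not listed, shaded bands hold the middle 50% of all genes compared and dotted lines are their medians. PYCR3 lies left of both bands in Arg- alone, and ASS1 lies right of both bands in Arg- and Leu-. PRODH and, with CHX, most enzymes in Met- have no point.

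Arginine lack was then set directly against leucine lack and methionine lack, which leaves the Suff libraries out. Against Leu- with CHX 7 enzymes were compared: ALDH18A1 was 2.27-fold higher in Arg-, a log2 ratio of 1.15 (1.004 to 1.37; 4.15% of 6868 genes at least 2-fold higher), and PYCR3 was 2.62-fold lower, at -1.36 (-1.65 to -1.13; 5.2% at least 2-fold lower). Without CHX none of 8 was 2-fold higher in Arg- than in Leu- (background 1.21%) and 1 was lower (background 3.56%), again PYCR3, 2.56-fold, at -1.32 (-1.95 to -0.79). Its ratio was lower than that of all but 1.22% of the genes with CHX and all but 0.947% without CHX. ALDH18A1 without CHX was at 0.17 (-0.08 to 0.43), so no difference between Arg- and Leu- was detectable for it in that series. ASS1 was not detectably different between Arg- and Leu-, and ASL was lower in Arg- with CHX only: the log2 ratio of ASS1 was -0.18 with CHX (-0.38 to 0.03) and 0.02 without CHX (-0.28 to 0.32), and that of ASL was -0.33 (-0.63 to -0.06) and -0.05 (-0.53 to 0.44). For OAT the direction was not the same in the series, 0.61 with CHX (0.44 to 0.79) and -0.42 without CHX (-0.65 to -0.20). The median over the enzymes was -0.18 with CHX and -0.02 without CHX, beside -0.13 and -0.15 for all genes.

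Against Met- the comparison rests on the series without CHX, since with CHX only PYCR1 and PYCR3 were listed in both libraries. There 1 of 8 enzymes was at least 2-fold higher in Arg- (background 3.57%), ASS1 at a log2 ratio of 1.29 (0.90 to 1.75), exceeded by 1.91% of the genes. The lower ones were 2 (background 15.1%): PYCR3 at -1.80 (-2.42 to -1.29) and OAT at -1.28 (-1.49 to -1.08). ALDH18A1 was at -0.62 (-0.86 to -0.41). With CHX none was higher (background 7.2%), and PYCR1 and PYCR3 were both lower at -1.06 and -3.10, where 51.8% of 1987 genes were lower and the median of all genes was -1.05. Relative to that median PYCR3 was at -2.05 and PYCR1 at -0.01. At 2-fold its Arg- level PYCR3 would still have stayed under 64 reads in Met- with CHX. Its call as at least 2-fold lower was thus fixed by the cutoff once it was listed. Without CHX the median over the enzymes was -0.07 beside -0.29 for all genes.

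**Figure D4:**
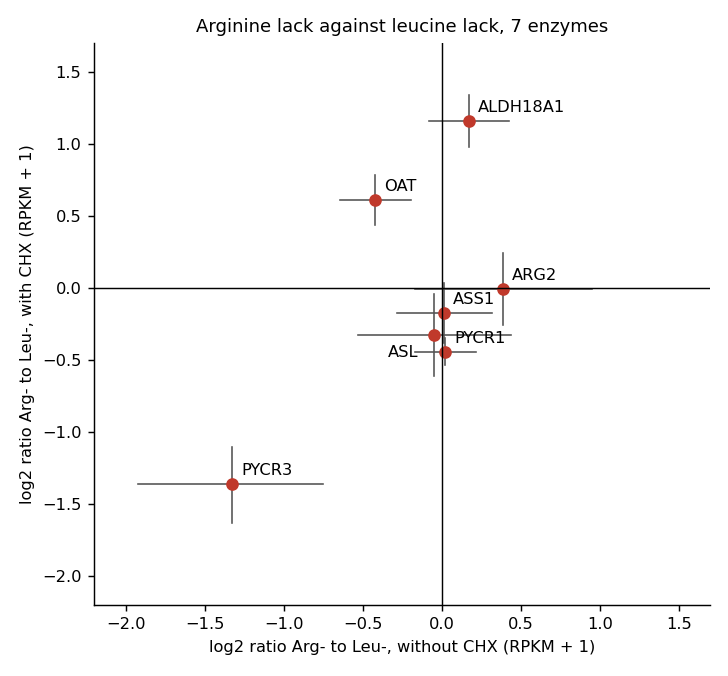
Log2 ratio of Arg- to Leu- (RPKM + 1) with CHX on the vertical axis and without CHX on the horizontal axis, for the 7 enzymes compared in both series. Lines are 95% exact intervals of the read ratio, moved with the point to the RPKM + 1 scale. PYCR3 is the only point below -1 on both axes, ALDH18A1 is above 1 with CHX alone, and OAT lies on opposite sides of 0 in the series.

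Other genes of arginine and proline metabolism, a list of 30 with carriers and transporters, held 8 that could be compared in Arg- and in Leu- with CHX, 2 in Met- with CHX, and 13 in each starved library without CHX. With CHX 3 of 8 were at least 2-fold higher and 2 lower in Arg-, 3 of 8 were higher and none lower in Leu-, and 1 of 2, SLC7A1, was higher and none lower in Met-. Without CHX 3 of 13 were higher and 1 lower in Arg-, 2 were higher and none lower in Leu-, and 2 were higher and 1 lower in Met-. The shares over all genes compared, higher and lower, were 16.6% and 19.7% in Arg-, 12.1% and 7.28% in Leu- and 46.7% and 9.79% in Met- with CHX, and 8.23% and 5.95%, 6.85% and 2.06%, and 20.2% and 5.34% without CHX. The median log2 ratio of the list in Arg- was -0.18 with CHX and 0.10 without CHX. Against Leu- 2 of 13 were higher and 2 lower in Arg- with CHX, and none of 13 in either direction without CHX. The shares over all genes, higher and lower, were 4.15% and 5.2% with CHX and 1.21% and 3.56% without CHX. SLC7A1, the main cationic amino acid transporter and the entry route of arginine, was higher in all 6 comparisons: with CHX its RPKM was 13.9 in Suff, 117 in Arg-, 52.0 in Leu- and 158 in Met-, and without CHX 40.3, 170, 145 and 199. At their Suff levels both genes compared in Met- with CHX would have stayed under the cutoff of 64 reads. Listed values there could only exceed Suff, for SLC7A1 by at least 2-fold, so that comparison was fixed by the cutoff. SLC38A2, which carries neutral amino acids including proline, was higher in both series in Arg- and Leu-. Its log2 ratios were 3.20 and 1.65 in Arg- and 1.40 and 1.96 in Leu-, with and without CHX. SLC38A2 was also at least 2-fold higher in Met- without CHX, at an RPKM of 126 beside 60.7 in Suff. In Met- with CHX it was not listed (limit 77.1).

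As a measure of the stress response in the same libraries, 12 known genes of the ATF4 pathway, among them ASNS and TRIB3, were counted. At least 2-fold higher were 10 of 10 compared in Arg- and 10 of 10 in Leu- without CHX, and 9 of 10 in Met-, with median log2 ratios of 2.91, 2.63 and 1.73. With CHX 6 of 7, 7 of 7 and 6 of 6 were higher, with medians of 2.74, 2.40 and 2.45. In Met- with CHX the cutoff of 64 reads let ASNS and SESN2 be listed only at 2-fold or more above Suff. It let ATF4 and CEBPB be listed only above Suff, so the 6 of 6 and the median of 2.45 lean high. Of all genes compared, 8.23% in Arg-, 6.85% in Leu- and 20.2% in Met- were higher without CHX. With CHX the shares were 16.6%, 12.1% and 46.7%. Between Arg- and Leu- none of the 10 differed by 2-fold without CHX, whereas with CHX 2 of 10 were higher in Arg-, ASNS and SLC7A11, and 1 was lower, ATF4. Of all genes 1.21% were higher and 3.56% lower in Arg- without CHX, and 4.15% and 5.2% with CHX. PYCR1 and ALDH18A1, which are known targets of the same factor, lay below these medians in every library in which they were compared. In Met- with CHX, where only PYCR1 of the pair was compared, that median leans high through the cutoff. The part of the stress response in the values of the enzymes was not tested.

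The coding sequences were also described by the amino acids withdrawn. Arginine made up 6.29% of the codons of PYCR3 and 4.91% of PYCR1, beside a median of 5.64% over 11470 genes, and PYCR3 stood above 63.4% of the genes. ALDH18A1 had 6.04%, ASS1 had 4.85% and PRODH had the most of the group, 8.5%. Leucine made up 8.25% in ASS1 to 12.5% in ASL, and methionine 1.41% in ARG2 to 3.33% in PRODH. RefSeq promoter windows (GRCh38.p14, from 250 bases before to 50 after the start) were given for 6 of the 9 genes, ASS1, ASL, ARG2, OAT, ALDH18A1 and ALDH4A1. The core of the element bound by C/EBP and ATF factors, TGATGNAA on either strand, was found in none of them. It was found in 3.67% of all 27305 such windows and in 1.57% of the 9426 windows of genes listed without CHX. The absence says only that these letters are not in these windows.

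The genes whose pattern was most like that of an enzyme were found by the root mean square difference of log2(RPKM + 1), centred on the mean of each series. For PYCR1, over 8 libraries, they were AKR7A2 (0.10), HINT2 (0.12) and UNC119B (0.12) among 1789 genes. Over the 7 libraries other than Met- with CHX, a setting chosen after seeing which libraries listed the enzymes, the nearest of 4903 genes to PYCR3 were EGLN1 (0.13), RDH10 (0.14) and ITGB1BP1 (0.15). PYCR3 was listed in all 8 libraries, but its nearest genes over 8 were not taken. The library left out is the one where its RPKM was highest, at 318. For PYCR1 the setting with 7 libraries gave other and closer genes, IFT57 (0.05), RCHY1 (0.05) and CENPU (0.06). The nearest to ASS1 were TRAPPC6A (0.11), TTC19 (0.18) and CALCB (0.18), and to ALDH18A1 DHX15 (0.10), USP9X (0.12) and NCOA4 (0.14). These are descriptions over few libraries, which all the genes share.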

How the data were processed

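Ribosome-protected fragments of HEK293T cells were sequenced in 8 libraries, 1 per condition and series. According to the study's methods, the authors kept reads by length, trimmed low-quality bases with Trimmomatic, mapped them with Bowtie to human transcripts of GRCh38, allowing no mismatch, and used uniquely mapped reads. The submitters' processing notes also name cutadapt. Each deposited table gives an RPKM for every listed Ensembl transcript, and names of the deposited files say that duplicates were removed in the series without CHX. The annotation release is not given in the sources used here. The series differ in pretreatment, duplicate removal and listing cutoff, so libraries were compared within a series only.

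Transcripts were matched to GENCODE release 44 (96.7% to 97.1% found). Read counts were recovered from the whole steps of RPKM times coding length (tolerance 0.01 of a step, at least 97.1% of matched values whole). The highest transcript per gene and library was used, with a pseudocount of 1 RPKM and a minimum mean of 10 RPKM. Genes not listed in either library of a pair got no ratio. Intervals at 95% were exact Poisson for a level and exact conditional binomial for a ratio, and cover counting error only. PCR duplicates are not independent molecules. No test was run, since each condition had 1 library in each series and the series differ in pretreatment and processing. The scripts were tested on simulated data. The members, lists and rules were chosen with earlier results of these data known. All 9 members were named, as were other pathway genes at 2-fold in the same direction in both series. One gene that the rule lists by name is not reported here. Alternatives concerned pseudocount, transcript choice, unlisted genes, centring, and minimum RPKM or reads. Tables were handled with pandas 2.3.3 and numpy 2.4.6 in Python 3.11.15, intervals came from scipy 1.17.1, and figures from matplotlib 3.10.9.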

Additional observations from a re-analysis of the deposited data

Results flagged for a closer look

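PYCR3 was picked out because its ratio to Suff went opposite ways under different starvations, with both 95% counting intervals clear of 0 and at least 1 of the ratios past 2-fold. With CHX the log2 ratio was -1.60 in Arg-, -0.24 in Leu- and 1.50 in Met-. Without CHX it was -1.24 in Arg- and 0.56 in Met-. With CHX a listed PYCR3 value in Met- could only give a positive ratio, since its Suff level would have stayed under 64 reads there. The sign in Met- with CHX thus came from the listing cutoff, whereas the cutoff of 5 reads without CHX allowed either sign. These ratios share a Suff library within each series, and each rests on 1 library per condition, so the difference between starvations was not tested. In Met- with CHX the median log2 ratio of all genes was 0.89, which moves with the PYCR3 value there, and its part in that value was not tested.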

How the results depend on the processing

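Of 270 counts and medians recomputed under 9 alternatives, 242 stayed within 1.5 times the count or within the counting interval. No paired analysis was possible because no result comes from a test. With unlisted genes counted as 0, the higher enzymes became 3 in Arg- and 2 in Leu- against Suff with CHX, the lower ones 2 in Met-, and the higher ones 5 in Arg- against Met-. The median then reversed to -1.80 for Met- against Suff and to 5.51 for Arg- against Met- with CHX, since these zeros stand for fewer than 64 reads. With unlisted genes at the lowest listed read count, the higher enzymes were 2 in Arg-, 1 in Leu- and 5 in Met- against Suff with CHX, and for Arg- against Met- the lower ones were 4 and the median -1.06. In Met- with CHX that count lies more than 2-fold above the Suff levels of ASS1, ARG2 and ALDH18A1. It also lies more than 2-fold above the Arg- levels of ASL and ARG2, so these added calls come from the imputed count. With ratios centred on the median of all genes, the higher enzymes with CHX were 2 in Arg- and 0 in Met-, where the median was 0.39. Centred values for Arg- against Met- gave 1 lower enzyme in each series and a median of -1.03 with CHX. At a minimum mean RPKM of 50, which drops PYCR3 without CHX in Arg- against Suff and Leu-, the medians with CHX were -0.80 in Arg- and 0.10 in Leu-, and 0 enzymes were higher in Arg- against Suff or Leu-. Without CHX this minimum left 0 lower enzymes in Arg- against Suff and Leu-, and medians of 0.96 in Met- and -0.62 for Arg- against Met-. A minimum of 64 reads, which PYCR3 does not reach in Arg- without CHX (37 reads), left 0 lower enzymes there against Suff and Leu- and 1 against Met-. Single log2 ratios left their counting interval in 12 recomputed values and stayed within it in 496, and none was reversed. Settings for unlisted genes and for minimum RPKM or reads cannot change the ratio of an enzyme already compared, so many of the 496 were fixed in advance. A reversal was counted only for ratios past 2-fold. PYCR1 in Arg- against Suff with CHX went from -0.003 to 0.23 on centring and was not counted as one. The 37 reads of PYCR3 in Arg- without CHX limit how well its size is known.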
